A study of Mus musculus with 9 samples.

Results

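The nonclassical MHC class I genes H2-Q1, H2-Q2, H2-Q4, H2-Q6, H2-Q7, H2-T10, H2-T22, H2-T23, H2-T24 and H2-M3 were followed in thymocytes lacking the splicing factor SRSF1. They were taken by symbol from the deposited RNA-seq gene counts, where each of the 10 matched a single Ensembl ID among 53715. The tested libraries were 2 SRSF1KO samples of genotype Srsf1fl/flLckcre/+, in which Cre recombinase driven by the T lineage promoter of Lck deletes the floxed Srsf1 alleles. They were set against 3 WT samples, for which the labels give no floxed allele and no Cre. All 5 samples came from the thymus of C57BL/6 mice aged 6 to 8 weeks and were sorted by flow cytometry as TCRβ+ CD69+ CD24+ CD4+ CD8+ cells, that is, double-positive thymocytes engaged in T cell receptor signalling. The series also lists 4 CLIP-seq samples of unsorted WT thymocytes, 2 with an SRSF1 antibody and 2 with IgG, which were not analysed here.

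Class I molecules are heavy chains that pair with β2-microglobulin (B2m) at the cell surface. The classical molecules, H2-K and H2-D in this strain, are highly variable between individuals and present peptides to CD8 T cells. The nonclassical ones vary little, are usually less abundant, and present restricted ligands or serve as ligands themselves. H2-Q7 encodes a Qa-2 molecule that is held in the membrane by a lipid anchor and presents peptides. H2-T23 encodes Qa-1, which displays leader peptides of other class I chains to CD94/NKG2 receptors. The products of H2-T10 and H2-T22 are ligands of some γδ T cell receptors and hold no peptide, and H2-M3 presents N-formylated peptides of bacteria and mitochondria. Interferons and the transactivator NLRC5 drive many class I promoters through a shared set of upstream elements.

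Promoter windows were searched for exact letters of such elements. RefSeq windows of GRCm38.p6, running from 250 bases before to 50 bases after a transcript start site, were held for 7 of the 10 members, and H2-Q1, H2-T10 and H2-T24 had none. The start site of the H2-Q7 window lies 15 bases downstream of the RefSeq gene start, and in the other 4 windows shown both coincide. Of the 7, 5 are shown. H2-Q7 had the largest difference between groups and H2-Q2 the largest positive log2 fold change. H2-T22 and H2-T23 come from the T region, and the last is H2-M3. The windows are chr17:35438905-35439204 (plus strand) for H2-Q7, chr17:35342057-35342356 (plus strand) for H2-Q2, chr17:36042693-36042992 (minus strand) for H2-T22, chr17:36032652-36032951 (minus strand) for H2-T23 and chr17:37269984-37270283 (plus strand) for H2-M3. Each is written 5′ to 3′ along its gene. Capitals mark matches, on either strand, to the enhancer A letters GGGGATTCC, the interferon-responsive element letters TTTCACTT, the site alpha letters TGACG and the letters CCAAT.
H2-Q7: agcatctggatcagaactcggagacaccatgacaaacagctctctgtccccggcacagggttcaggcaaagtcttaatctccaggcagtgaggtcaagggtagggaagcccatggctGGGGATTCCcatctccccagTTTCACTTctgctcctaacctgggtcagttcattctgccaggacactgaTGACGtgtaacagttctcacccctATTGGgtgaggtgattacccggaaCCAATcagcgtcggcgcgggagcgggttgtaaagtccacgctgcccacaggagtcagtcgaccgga
H2-Q2: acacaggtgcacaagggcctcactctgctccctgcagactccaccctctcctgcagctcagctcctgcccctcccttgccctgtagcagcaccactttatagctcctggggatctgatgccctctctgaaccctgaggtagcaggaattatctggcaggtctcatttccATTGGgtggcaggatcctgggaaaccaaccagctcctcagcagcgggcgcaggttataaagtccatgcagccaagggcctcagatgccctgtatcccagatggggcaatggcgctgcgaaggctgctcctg
H2-T22: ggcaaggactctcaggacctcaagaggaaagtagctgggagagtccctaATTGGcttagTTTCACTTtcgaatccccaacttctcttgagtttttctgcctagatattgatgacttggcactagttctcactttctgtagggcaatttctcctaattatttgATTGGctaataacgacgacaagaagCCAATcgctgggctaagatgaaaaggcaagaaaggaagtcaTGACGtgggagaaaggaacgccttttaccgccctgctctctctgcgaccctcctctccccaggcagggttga
H2-T23: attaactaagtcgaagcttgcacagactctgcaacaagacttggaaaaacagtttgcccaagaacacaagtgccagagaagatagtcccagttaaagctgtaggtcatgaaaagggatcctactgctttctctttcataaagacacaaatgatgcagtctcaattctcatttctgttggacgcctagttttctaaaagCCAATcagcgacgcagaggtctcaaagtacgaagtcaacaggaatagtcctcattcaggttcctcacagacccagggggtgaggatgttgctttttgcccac
H2-M3: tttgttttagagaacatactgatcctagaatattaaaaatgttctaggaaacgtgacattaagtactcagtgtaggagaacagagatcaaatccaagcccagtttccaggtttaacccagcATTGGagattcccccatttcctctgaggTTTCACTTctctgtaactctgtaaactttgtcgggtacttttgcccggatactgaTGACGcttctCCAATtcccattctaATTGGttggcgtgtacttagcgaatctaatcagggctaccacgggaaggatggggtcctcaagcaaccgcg
The window of H2-Q7 held all 4 sets of letters in the order of the classical genes, with enhancer A letters starting 133 bases, interferon element letters 113 bases and site alpha letters 64 bases before the start site of its window. The H2-Q2 and H2-T23 windows matched CCAAT alone, 1 time each. H2-T22 and H2-M3 held the interferon element and site alpha letters without the enhancer A letters. In H2-T22 the site alpha letters started 22 bases before the start site, downstream of its CCAAT matches. Of the 2 members not printed, H2-Q6 held the enhancer A and interferon element letters without site alpha, and H2-Q4 the interferon element and site alpha letters without enhancer A.

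Across all 32851 RefSeq windows, GGGGATTCC occurred in 0.25%, TTTCACTT in 1.6%, TGACG in 20.8% and CCAAT in 37.4%. Only 4 windows held all of them, and these belonged to H2-K1 (2 windows), H2-D1 and H2-Q7. The motifs do not overlap one another in these windows. The letters were chosen with class I promoters in view, so their match to class I genes is not independent evidence, and a match is not a shown binding site. Only exact letters were searched, so a window without a match may still hold a variant of the element.

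**Figure D1:**
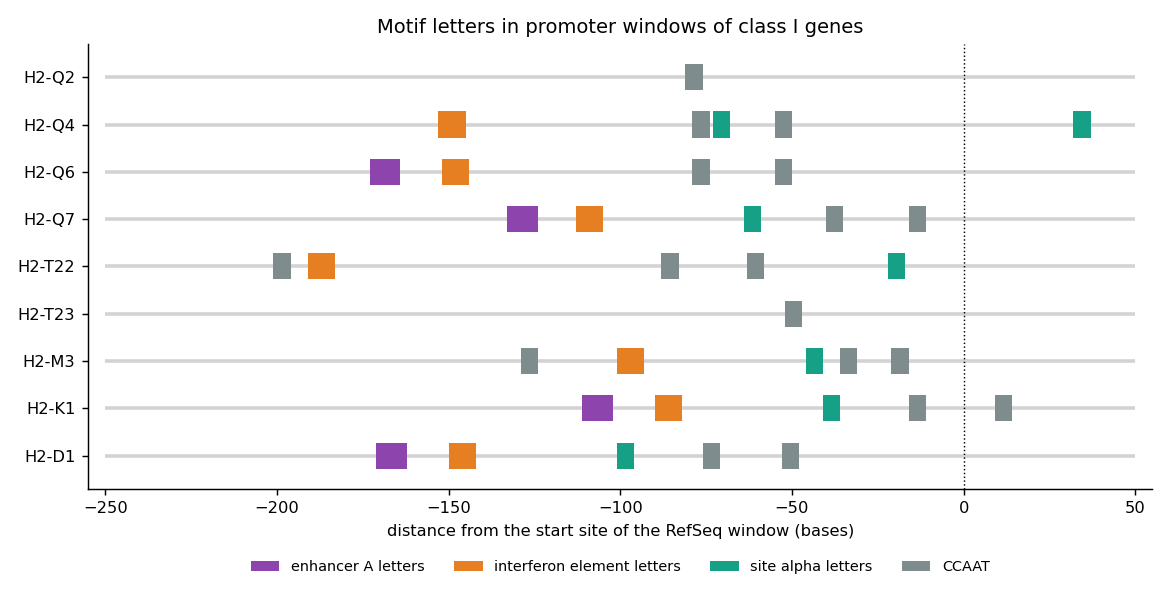
Matches to 4 sets of motif letters in the promoter windows of 7 nonclassical members and of H2-K1 and H2-D1 (first window), by distance from the start site of the RefSeq window in bases. H2-Q7 matches all 4 kinds, as H2-K1 and H2-D1 do, and H2-Q2 and H2-T23 match CCAAT alone.

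The libraries were alike in depth and carried the marks of the sorted cells. They held 36026006 and 36062595 gene-assigned reads in SRSF1KO and between 36487359 and 38985285 in WT, and single members had between 114 and 15143 counts in a library. Srsf1 stood at 42.6 and 30.9 CPM (counts scaled to library size with TMM normalisation) in SRSF1KO replicates 1 and 2, against 96.9 to 122.7 CPM in WT (log2 fold change -1.55 ± 0.19, edgeR adjusted p = 0.0483, and 0.0509 to 0.220 with any 1 library left out). Of the 9 double-positive thymocyte markers none was called, and Cd8a stood at 1820 and 1458 CPM in SRSF1KO against 1519 to 1829 CPM in WT. For 3 of the 9 the groups did not overlap, where 17.8% of all tested genes lay below WT and 15.2% above, a like share. Cd4 stood at 1229 and 1118 CPM in SRSF1KO against 767 to 932 CPM in WT. Trac stood at 1000.4 and 1007 CPM in SRSF1KO against 1174 to 1190.2 CPM in WT. Rag1, which is highest before selection, stood at 1142 and 766 CPM in SRSF1KO against 513 to 663 CPM in WT. Summed B cell markers reached 18.3 and 14.4 CPM in SRSF1KO and 11.9 to 16.1 CPM in WT. The 10 dendritic cell and macrophage markers, class II genes included, summed to 392.5 and 271.3 CPM in SRSF1KO and 330.3 to 526.6 CPM in WT. The 6 thymic epithelial markers summed to 46.3 and 30.7 CPM in SRSF1KO and 38.4 to 45.1 CPM in WT. For the 5 NK and γδ T cell markers the sums were 59.6 and 47.7 CPM in SRSF1KO and 29.8 to 39.3 CPM in WT. Most of these NK and γδ sums was the γδ receptor gene Trdc, given below. Log2 fold changes in that list ran from -0.57 to 0.74, the latter being Trdc. The 4 red blood cell markers summed to 89.7 and 19.7 CPM in SRSF1KO and 2.34 to 11.8 CPM in WT. Of the other cell types no marker was called. The dendritic cell gene Xcr1 stood at 0 and 0.028 CPM in SRSF1KO against 0.753 to 1.57 CPM in WT, and Sirpa, of the same list, at 6.326 and 12.3 CPM in SRSF1KO against 2.06 to 6.320 CPM in WT; the single markers named here were picked after their values were seen. The part of these markers in the class I values was not tested. In bulk RNA, fewer cells of a type and less RNA per cell cannot be told apart. The labels do not say whether the samples came from separate animals, so p-values speak only of the spread among these libraries. SRSF1KO replicate 1 and WT replicate 2 had the male pattern of sex-linked transcripts and the other 3 libraries the female pattern. The 2 SRSF1KO libraries thus did not come from the same animal, nor did WT replicate 2 and either other WT library. Whether WT replicates 1 and 3 did is not known, so their spread may be technical.

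Most nonclassical class I transcripts were lower in SRSF1KO, with H2-Q7 far in front, while H2-Q2 had the largest positive log2 fold change. All 10 members passed the filter on low counts. H2-Q7 was the only one called (edgeR quasi-likelihood test, Benjamini-Hochberg adjusted p under 0.05), where 0.213% of 17351 tested genes were called lower and 0.0519% higher (37 and 9 genes, or 7 and 3 with DESeq2 size factors). At an unadjusted p under 0.05 there were 6 members lower and 1 higher, beside 8.45% of all tested genes lower. Both SRSF1KO libraries lay below all 3 WT libraries for 6 members and above them for 1, where 17.8% of all tested genes lay below and 15.2% above. The median log2 fold change was -0.54 over the 10 members and -0.01 over all tested genes. By DESeq2, 6 members were called lower and 0 higher, beside 3.65% of all tested genes called lower. Their summed level was 672 and 700.01 CPM in SRSF1KO, against 1034, 1064 and 1077 CPM in WT.

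**Figure D2:**
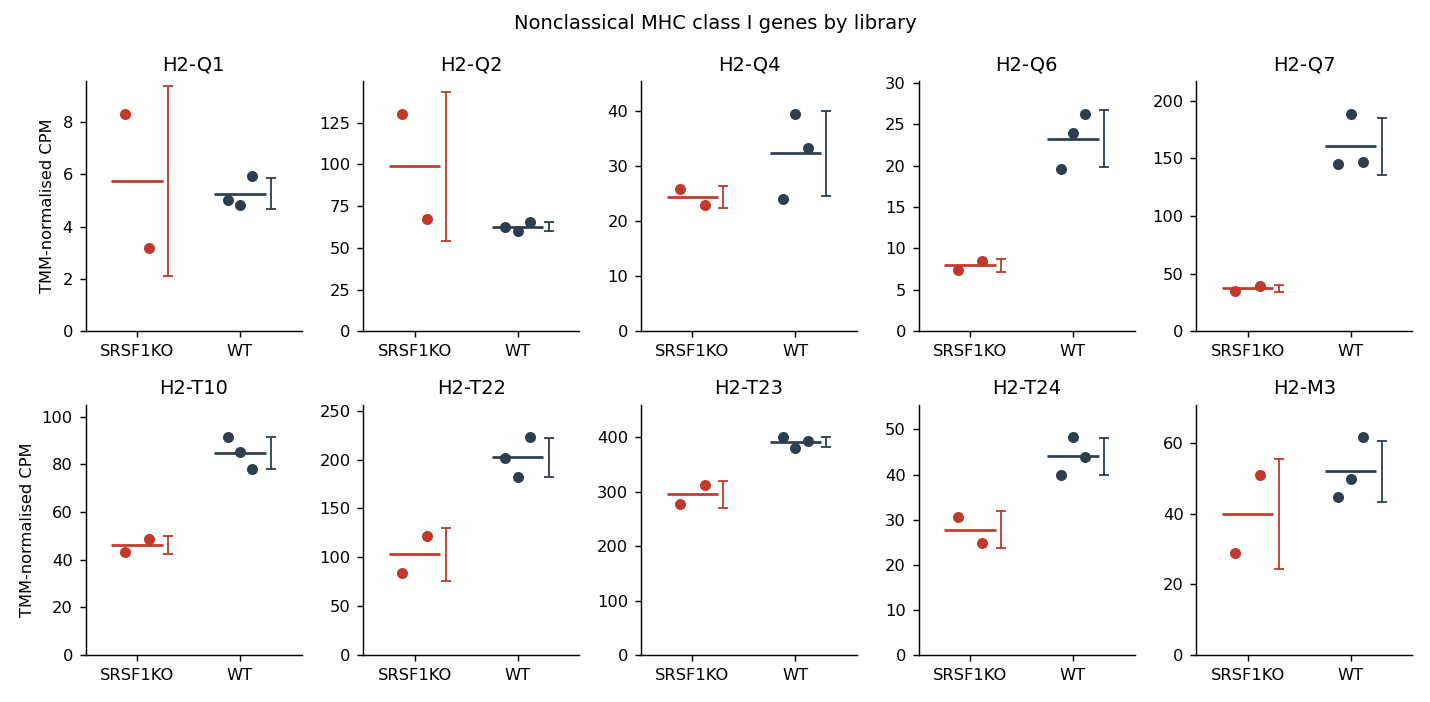
TMM-normalised CPM of each of the 10 members in every library, with SRSF1KO in red and WT in dark blue; horizontal lines are group means and the bars beside them are ± 1 SD (n = 2 SRSF1KO, n = 3 WT). H2-Q6, H2-Q7, H2-T10, H2-T22, H2-T23 and H2-T24 are lower in both SRSF1KO libraries than in any WT library, and H2-Q2 is higher in both.

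H2-Q7 (ENSMUSG00000060550.15, chromosome 17, 35439140 to 35443773, GRCm38.p6) stood at 35.2 and 39.5 CPM in SRSF1KO, against 145.4, 188.9 and 146.9 CPM in WT. The SRSF1KO libraries were close to each other and far below every WT library. The means were 37.3 ± 3.08 CPM in SRSF1KO and 160.4 ± 24.7 CPM in WT (SD, n = 2 and n = 3), a 4.30-fold higher level in WT and a log2 fold change of -2.10 ± 0.16 (SE; edgeR adjusted p = 0.00948). Only 3 of 17351 genes had a smaller p in the same test. The call was lost without WT replicate 1, 2 or 3 (adjusted p between 0.0528 and 0.0895), while the log2 fold change stayed between -2.16 and -1.97 there.

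H2-Q6 (ENSMUSG00000073409.12, chromosome 17, 35424850 to 35430055), the neighbour of H2-Q7, had 7.38 and 8.51 CPM in SRSF1KO, against 19.5, 23.99 and 26.3 CPM in WT. The groups did not overlap, and its log2 fold change of -1.55 ± 0.25 (SE) missed the threshold over all genes (edgeR adjusted p = 0.0641). DESeq2 called H2-Q6 lower (adjusted p = 2.95e-06). H2-Q6 and H2-Q7 are closely related genes, so reads of one may have been counted for the other or left out. Their transcript sequences were not compared here. H2-Q6 had 21.0% and 21.5% as many counts as H2-Q7 in SRSF1KO, against 13.4%, 12.7% and 17.9% in WT.

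For H2-Q4 and H2-Q1 the groups overlapped. H2-Q4 (ENSMUSG00000035929.11, chromosome 17, 35379617 to 35384674) had 25.7 and 22.9 CPM in SRSF1KO, against 24.1, 39.5 and 33.3 CPM in WT. WT replicate 1 lay among the SRSF1KO values (log2 fold change -0.41 ± 0.25, edgeR adjusted p = 0.513). H2-Q1 (ENSMUSG00000079507.10, chromosome 17, 35320525 to 35328142) had the fewest counts, with 8.32 and 3.19 CPM in SRSF1KO on either side of 5.02, 4.84 and 5.95 CPM in WT (0.13 ± 0.47, edgeR adjusted p = 0.952). Neither a rise nor a fall of H2-Q1 was detected, and with so wide an error a modest one could have been missed.

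H2-Q2 (ENSMUSG00000091705.8, chromosome 17, 35342307 to 35346764) stood at 130.4 and 67.1 CPM in SRSF1KO, against 62.7, 59.9 and 65.5 CPM in WT. The groups did not overlap, but replicate 2 of SRSF1KO lay just above the highest WT library while replicate 1 stood far above all others. Its log2 fold change of 0.66 ± 0.25 (SE) did not pass (edgeR adjusted p = 0.302). Without SRSF1KO replicate 2 it was 1.08 and passed (adjusted p = 0.0409), and without SRSF1KO replicate 1 it was 0.10.

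The shares of H2-Q2 and H2-Q7 in the Q region counts differed between the groups, which was not tested. Of all counts of the 8 H2-Q rows, H2-Q2 took 61.9% and 47.1% in SRSF1KO, against 24%, 18.6% and 22.8% in WT. The share of H2-Q7 was 16.7% and 27.8% in SRSF1KO, against 55.6%, 58.6% and 51.2% in WT. Shares of one sum are tied, so fewer H2-Q7 counts raise the share of H2-Q2. In SRSF1KO replicate 2, H2-Q2 itself stood at 67.1 CPM, near the 65.5 CPM of WT replicate 3. The H2-Q rows summed to 210.8 and 142.3 CPM in SRSF1KO, against 261.4, 322.3 and 287.0 CPM in WT (log2 fold change -0.72 ± 0.18, edgeR adjusted p = 0.148). Such a sum does not depend on how reads were divided among H2-Q copies, and it did not pass where H2-Q7 alone did.

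**Figure D3:**
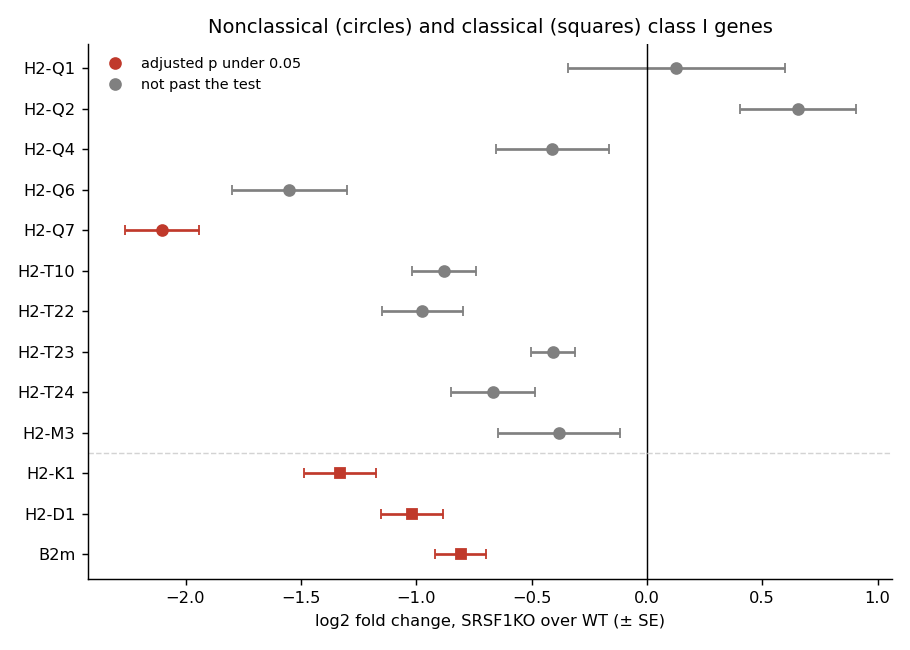
Log2 fold change of SRSF1KO over WT with its SE for the 10 nonclassical members (circles) and for H2-K1, H2-D1 and B2m (squares); red marks an edgeR adjusted p under 0.05. H2-Q7 has the largest negative value, at -2.10, and H2-Q2 the largest positive one, at 0.66.

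In the T region all 4 members were lower in both SRSF1KO libraries than in any WT library, and none was called by edgeR. DESeq2 called all 4 lower (adjusted p = 7.1e-06 for H2-T10, 1.5e-05 for H2-T22, 0.011 for H2-T23 and 0.026 for H2-T24). Beside this, 17.8% of all tested genes lay below WT in both SRSF1KO libraries, and DESeq2 called 3.65% lower. H2-T22 (ENSMUSG00000056116.18, chromosome 17, 36037128 to 36042742) had 84.0 and 122.0 CPM in SRSF1KO, against 201.7, 182.4 and 222.7 CPM in WT, a log2 fold change of -0.97 ± 0.18 (edgeR adjusted p = 0.0858). H2-T10 (ENSMUSG00000079491.9, chromosome 17, 36115871 to 36121444), which RefSeq lists as a transcribed pseudogene, had 43.4 and 48.9 CPM in SRSF1KO, against 91.4, 85.3 and 78.1 CPM in WT (-0.88 ± 0.14, edgeR adjusted p = 0.0637). These 2 closely related genes, whose sequences were not compared either, had similar differences. The H2-T10 counts were 51.7% and 40.1% of the H2-T22 counts in SRSF1KO and 45.3%, 46.8% and 35.1% in WT. Summed, they reached 127.4 and 170.8 CPM in SRSF1KO, against 293.1, 267.7 and 300.9 CPM in WT (-0.95 ± 0.14, edgeR adjusted p = 0.0606).

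H2-T23 (ENSMUSG00000067212.8, chromosome 17, 36029977 to 36032701), the Qa-1 gene, had 277.9 and 312.2 CPM in SRSF1KO, against 399.9, 380.8 and 392.5 CPM in WT. The difference was small but the WT libraries were tight, and the log2 fold change was -0.41 ± 0.09 (edgeR adjusted p = 0.129). H2-T24 (ENSMUSG00000053835.17, chromosome 17, 36003471 to 36020800) had 30.6 and 24.8 CPM in SRSF1KO, against 40.0, 48.3 and 43.9 CPM in WT (-0.67 ± 0.18, edgeR adjusted p = 0.178). A930015D03Rik overlaps H2-T22, H2-T23 and H2-T24 and had 27 and 57 counts in SRSF1KO and 12 to 18 in WT, few beside 887 to 15143 counts of these 3 members. BC023719, which overlaps H2-T10, had 0 to 3 counts in a library.

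H2-M3 (ENSMUSG00000016206.6, chromosome 17, 37270234 to 37274485) split the SRSF1KO libraries. It stood at 29.0 and 51.0 CPM in SRSF1KO replicates 1 and 2, against 44.7, 49.8 and 61.7 CPM in WT. Replicate 1 lay below every WT library and replicate 2 among them, so the log2 fold change of -0.38 ± 0.26 did not pass (edgeR adjusted p = 0.585).

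Within both sex patterns 8 of the 10 members were lower in SRSF1KO. Comparing log2(CPM + 0.5) of the female-pattern libraries (1 SRSF1KO, 2 WT), H2-Q7 differed by -1.87, and by -2.41 in the male-pattern libraries (1 of each group). H2-T22 differed by -0.79 and -1.12, H2-T10 by -0.78 and -0.97, and H2-Q6 by -1.36 and -1.64 in the same order. H2-M3 differed by -0.04 and -0.77. H2-Q2 differed by 0.07 and 1.12, and H2-Q1 by -0.69 and 0.73. Each value rests on 1 SRSF1KO library, so sex pattern and single-library spread cannot be told apart.

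Classical class I transcripts were lower as well, so the members were also set against them. H2-K1 stood at 630 and 924 CPM in SRSF1KO, against 1917, 1942 and 2000.3 CPM in WT, and H2-D1 at 896 and 1223 CPM in SRSF1KO, against 2160, 2097 and 2176 CPM in WT. The light chain gene B2m had 1120.5 and 1363 CPM in SRSF1KO, against 2015, 2268 and 2235 CPM in WT. The log2 fold changes were -1.33 ± 0.16 for H2-K1, -1.02 ± 0.13 for H2-D1 and -0.81 ± 0.11 for B2m (edgeR adjusted p = 0.0483 for each). All 3 lost their call without any 1 WT library (adjusted p between 0.169 and 0.223) and with DESeq2 size factors (0.0515), and H2-D1 and B2m also without SRSF1KO replicate 1 (0.0772 and 0.143). In SRSF1KO replicate 1 these 3 genes were each lower than in replicate 2, as were H2-Q6, H2-Q7, H2-T10, H2-T22, H2-T23 and H2-M3. The members H2-Q1, H2-Q2, H2-Q4 and H2-T24 were higher in replicate 1 than in replicate 2.

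The ratio of each member to H2-K1 plus H2-D1 within a library, on the log2(CPM + 0.5) scale, does not depend on scaling between libraries. H2-Q7 had a log2 ratio of -5.42 and -5.75 in SRSF1KO, against -4.80, -4.42 and -4.82 in WT. It was thus lower relative to the classical pair in both SRSF1KO libraries, by 0.90 on average (difference -0.90; two-sided exact permutation test, p = 0.1, the smallest these group sizes allow, and 0.167 adjusted over the 10 members). No other member lay below WT on this ratio, and 0.392% of all tested genes did. H2-Q6 overlapped, at -7.60 and -7.90 in SRSF1KO against -7.67, -7.37 and -7.29 in WT (difference -0.31, exact p = 0.3).

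For the other members the ratio was mostly higher in SRSF1KO since H2-K1 and H2-D1 differed by more between the groups. Both SRSF1KO libraries lay above WT for 7 members, where 80.8% of all tested genes did so too. H2-T22 differed least, with -4.18 and -4.13 in SRSF1KO against -4.33, -4.47 and -4.23 in WT (difference 0.19, exact p = 0.2). H2-T10 had a difference of 0.31 and H2-T23 of 0.77, each with an exact p of 0.1. H2-Q2 had the largest difference, at 1.75 (exact p = 0.1), which was 1.03 without SRSF1KO replicate 1 and 2.48 without replicate 2. The H2-T10 difference was 0.14 and 0.47 in the same order. With B2m in place of the classical pair the H2-Q7 difference was -1.27, and those of H2-T10 (-0.06) and H2-T22 (-0.18) changed sign.

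**Figure D4:**
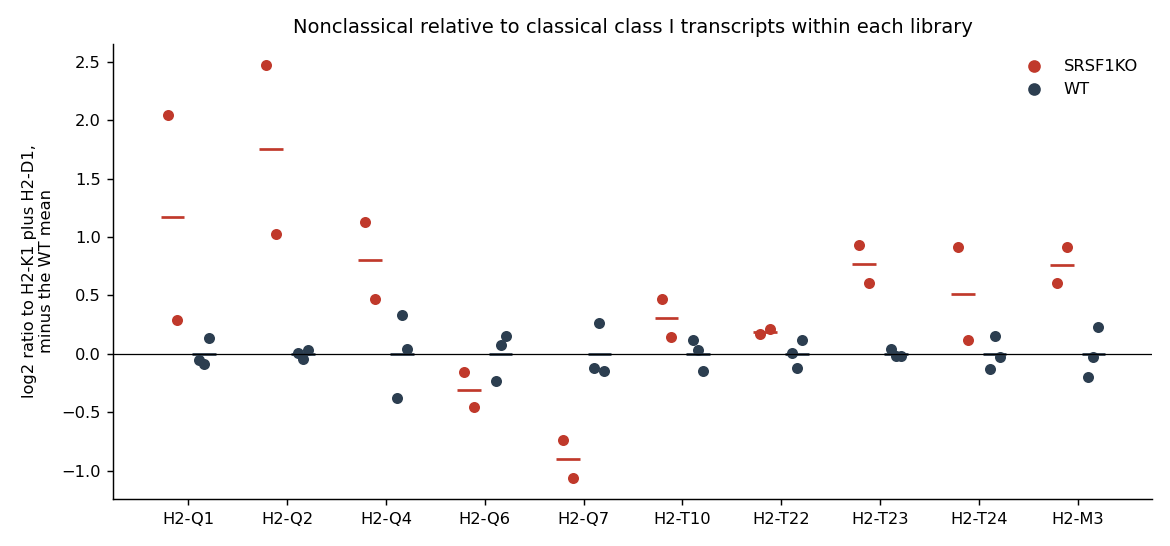
Log2 ratio of each member to H2-K1 plus H2-D1 in every library, with the WT mean of each gene set to 0; points are libraries (2 SRSF1KO in red, 3 WT in dark blue) and lines are group means. H2-Q7 is the only member with both SRSF1KO libraries below WT, and H2-Q2 has the largest difference, at 1.75.

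Genes that load and regulate class I molecules gave a mixed picture. Beside this and the following lists, 8.45% of all tested genes were lower at an unadjusted edgeR p under 0.05. DESeq2 called 3.65% of them lower, and 17.8% lay below WT in both SRSF1KO libraries. Of 17351 tested genes, 1024 were higher at that edgeR p, and DESeq2 called 383 higher. Among the 5 genes of the immunoproteasome and its activator, 1 was called lower and 0 higher by edgeR (4 lower and 0 higher at an unadjusted p under 0.05; DESeq2 called 4 lower), with a median log2 fold change of -0.57. All 5 lay below WT in both SRSF1KO libraries. The called gene was Psme2, an activator subunit, at 151.1 and 173.6 CPM in SRSF1KO against 283.5, 294.0 and 282.0 CPM in WT (-0.82 ± 0.10, edgeR adjusted p = 0.0483). No gene of this list was called without SRSF1KO replicate 1 or without any 1 WT library. Psme1, its partner subunit, is named beyond the rule and had a log2 fold change of -0.56 (adjusted p = 0.0720). Of 9 peptide loading genes none was called by edgeR (5 lower and 0 higher at an unadjusted p under 0.05; DESeq2 called 4 lower), with a median of -0.30. The peptide transporter subunit Tap1 had -0.64 (adjusted p = 0.0877) and Tapbp, which encodes tapasin, had -0.60 (adjusted p = 0.107).

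Of 16 genes of class I transactivation none was called by edgeR (4 lower and 0 higher at an unadjusted p under 0.05; DESeq2 called 4 lower), and the median was -0.04. Nlrc5 stood at 100.5 and 166.9 CPM in SRSF1KO, against 258.6, 256.9 and 260.3 CPM in WT. The SRSF1KO libraries lay well below a tight WT group but differed from each other, and the log2 fold change was -0.95 ± 0.20 (edgeR adjusted p = 0.118). Irf9, a subunit of the interferon-activated factor ISGF3, had -0.54 (adjusted p = 0.127).

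Class I genes beyond the members were mostly silent. Of 19 further class I rows of the MHC 5 passed the filter, and none was called by edgeR (2 lower and 0 higher at an unadjusted p under 0.05; DESeq2 called 1 lower). H2-Q5, listed by RefSeq as a transcribed pseudogene, had 1.41 and 0.979 CPM in SRSF1KO, against 3.72, 3.96 and 8.26 CPM in WT (-2.15 ± 0.57, edgeR adjusted p = 0.169). H2-K2, also a transcribed pseudogene, had 26.8 and 18.0 CPM in SRSF1KO, against 43.0, 29.8 and 42.2 CPM in WT (-0.78 ± 0.26, edgeR adjusted p = 0.247). Of 12 class I-like genes outside the MHC 8 were tested, with a median of 0.30 and none called (edgeR and DESeq2; 0 at an unadjusted p under 0.05). Among them Mr1, which presents vitamin B metabolites, had 0.47 (adjusted p = 0.502) and H60b, a ligand of the NKG2D receptor, -0.92 (adjusted p = 0.541).

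Of 11 receptor genes for nonclassical molecules 9 were tested and none was called by edgeR (2 lower and 1 higher at an unadjusted p under 0.05; DESeq2 called 2 lower and 1 higher). Cd160 had 5.88 and 10.5 CPM in SRSF1KO, against 23.001, 19.1 and 28.0 CPM in WT (-1.51 ± 0.33, edgeR adjusted p = 0.127). Trdc, the constant segment of the γδ receptor, had 56.9 and 43.9 CPM in SRSF1KO, against 27.5, 30.6 and 32.1 CPM in WT (0.74 ± 0.18, edgeR adjusted p = 0.139). Klrd1, which encodes CD94, the partner chain of the Qa-1 receptors, had 2.80 and 1.06 CPM in SRSF1KO, against 6.92, 7.25 and 6.86 CPM in WT (-1.86 ± 0.51, edgeR adjusted p = 0.179) and is named beyond the rule for its link to H2-T23.

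Other genes of the same stretch of chromosome 17 were near balance. Between H2-Q1 and H2-M3 (35320525 to 37274485) 93 further genes that are no known class I genes had a row, and 38 were tested. Their median log2 fold change was -0.07, against -0.54 for the members, and none was called by edgeR (4 lower and 2 higher at an unadjusted p under 0.05; DESeq2 called 0 lower and 2 higher). Of these 38, 7 (18.4%) lay below WT in both SRSF1KO libraries and 6 (15.8%) above, near the 17.8% and 15.2% of all tested genes. Ppp1r10, a regulatory subunit of protein phosphatase 1, had 157.0 and 129.4 CPM in SRSF1KO, against 95.1, 100.4 and 92.1 CPM in WT (0.58 ± 0.12, edgeR adjusted p = 0.118). Ppp1r11 had a log2 fold change of 0.48 (adjusted p = 0.168).

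**Figure D5:**
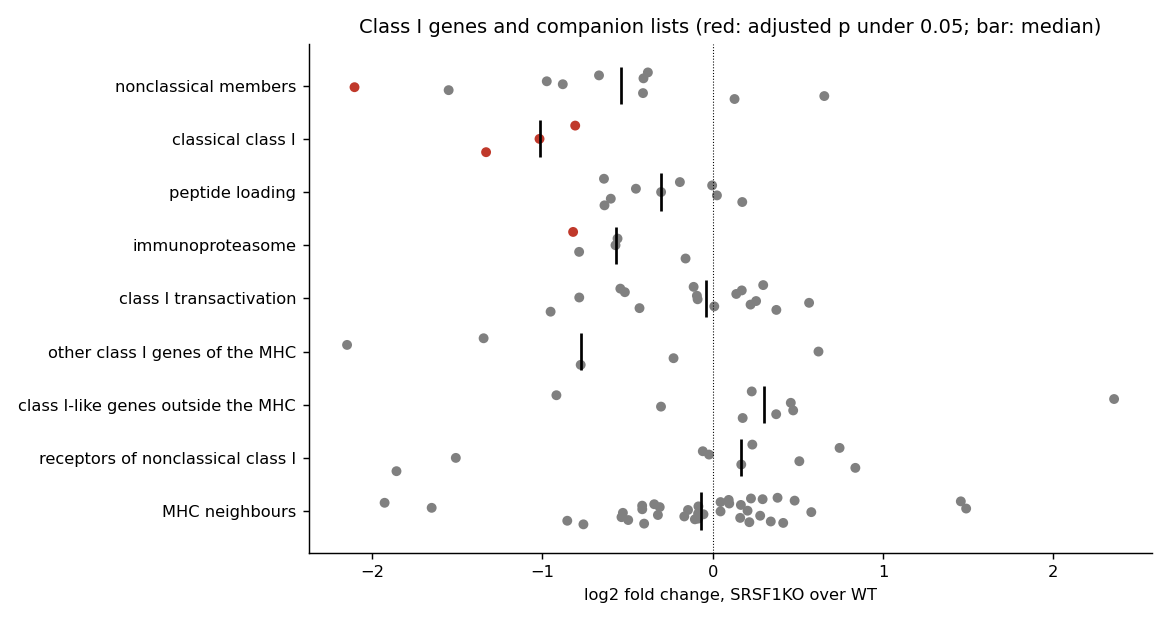
Log2 fold change of SRSF1KO over WT for each tested gene of the nonclassical members and of the 8 companion lists; red points have an edgeR adjusted p under 0.05 and black bars are list medians. The members' median lies at -0.54, the classical class I median at -1.02 and that of the MHC neighbours at -0.07.

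Genes outside the class I lists with profiles nearest to H2-Q7 were found by the root mean square difference of centred log2(CPM + 0.5) over the 5 libraries, leaving out genes that averaged under 5 CPM. They were Dse (0.20), Slfn1 (0.22), Gbp10 (0.22), Agrn (0.23) and Khk (0.24). Slfn1, of the Schlafen family, had 29.2 and 36.7 CPM in SRSF1KO, against 164.2, 151.6 and 169.6 CPM in WT. Gbp10, a guanylate-binding protein gene, had 2.00 and 1.93 CPM in SRSF1KO, against 9.16, 8.27 and 9.79 CPM in WT. For H2-T23 the nearest were Mpv17l2 (0.015), Arhgef1 (0.025), Npc2 (0.029), Prkch (0.032) and Dnajb1 (0.034).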

How the data were processed

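RNA-seq libraries of sorted thymocytes from 2 SRSF1KO and 3 WT samples were used. Per the labels' protocols, a spin-column kit yielded the RNA and Smart-seq2, which amplifies full-length cDNA, the libraries. The authors deposited raw counts of reads per gene. Per the submitters' processing notes, which assign no roles, HTSeq 0.6.1, cutadapt 1.17 with Trim Galore, and the build mm10 are named. Bowtie2 2.1.0, FastQC 0.11.5, HOMER 4.9.1 and DESeq2 1.20.0 are listed there too. Not given in the sources used here: which tool aligned the RNA-seq reads, annotation release, strand setting and handling of multi-mapping reads. Hence reads of near-identical, overlapping or antisense genes may be split or lost.

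Symbols were matched by Ensembl ID without version (53620 of 53715, and all 10 members). Coordinates and promoter windows came from RefSeq tables of GRCm38.p6, which has the coordinates of mm10. Counts were tested with edgeR 4.0.16 in R 4.3.3 (TMM, filterByExpr, glmQLFit with robust estimation, glmQLFTest, group as the only term) over 17351 genes, two-sided, with Benjamini-Hochberg adjustment. Standard errors were the absolute log2 fold change over the root of F. Per-gene CPM is not corrected for gene length, so ratios and shares between genes were compared only between the groups. Counts of genes that overlap members were set beside the members' counts as numbers of reads, not as levels. No 2 libraries agreed within sampling noise (chi-square per degree of freedom of at least 40.1). The scripts were tested on simulated data.

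Alternatives were other scalings and filters, DESeq2 1.42.0, limma-voom (limma 3.58.1), a replicate block, a sex-pattern term, sums of paralogs, and each library left out. Named genes were all members, H2-K1, H2-D1, B2m, Srsf1, the called genes of each list or else the 2 of smallest p, and the 5 nearest profiles to H2-Q7 and H2-T23; predicted genes were not named. Single cell type markers, Psme1, Klrd1 and the genes overlapping members were named outside this rule, after their values were seen. The members, lists, tests and motifs were chosen with earlier results of these data known.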

Additional observations from a re-analysis of the deposited data

How the results depend on the processing

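The number of members called lower, 1 with edgeR, was 4 without a filter on low counts, 4 at a mean of at least 5 CPM, 6 with DESeq2, 2 with limma-voom and 0 with the replicate block, and 0 to 2 with 1 library left out. Members called higher were 0 to 1 in those left-out fits. Companion list genes called lower, 4, were 0 with DESeq2 size factors, 13 without the filter, 12 at 5 CPM, 18 with DESeq2, 0 with the replicate block, 0 with the sex-pattern term and 0 to 6 with 1 library left out; those called higher, 0, were 2, 1 and 3 without the filter, at 5 CPM and with DESeq2. Over all genes, 37 lower and 9 higher became 7 and 3 with DESeq2 size factors (a share of higher calls that moved by over 10 points), 346 and 198 without the filter, 233 and 143 at 5 CPM, 633 and 383 with DESeq2, 71 and 23 with limma-voom, 0 and 0 with the replicate block, and 5 and 0 with the sex-pattern term. With 1 library left out they were 0 to 67 lower and 0 to 21 higher. Fits at 0 calls had 1640 genes (replicate block), and 1903, 2005 and 2079 genes (without WT replicate 1, 2 or 3) at an unadjusted p under 0.05. H2-Q1 changed sign with limma-voom (-0.025), the sex-pattern term (-0.081), without SRSF1KO replicate 1 (left-out range -0.72 to 0.68) and, like H2-Q2, when all H2-Q rows were summed (-0.72). No other member changed sign. H2-Q7 lay between -2.17 and -1.97 in all fits on single rows and lost its call with the replicate block (adjusted p = 0.292), without any 1 WT library, and in the H2-Q sum. The cause of these shifts was not tested. The H2-Q sum holds the counts of H2-Q2 among its rows. Replicate numbers are shared between the groups, and the deviations of same-numbered libraries from their group means had correlations of -0.05 and -0.01. With 2 SRSF1KO libraries these deviations mirror each other, so the correlations cannot decide whether the numbers mark pairs. With 2 SRSF1KO libraries, and 114 counts of H2-Q1 in the smallest case, differences such as those of H2-M3 and H2-Q1 are within the spread of replicates. Where 1 SRSF1KO library is left out, the other is assumed to vary like WT.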
